A study of Drosophila melanogaster with 4 samples.

Results

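Long stretches of the fly genome without H3K36me1 clusters were examined in heads of adult Drosophila melanogaster. H3K36me1 is histone H3 carrying a single methyl group on lysine 36, and it was measured by chromatin immunoprecipitation and sequencing (ChIP-seq). The flies were of the wild-type Oregon-R strain, raised in population cages, with the stage given as mixed adult, and no mutation or treatment is named. Heads were collected with sieves and fixed with formaldehyde. There were 2 ChIP replicates and 2 inputs, and each input, chromatin sequenced without antibody selection, had served the ChIP replicate of the same number. The deposited lists give enriched clusters for each ChIP replicate, and another one, the combined list, covers both. A gap was an interval of at least 50 kb between consecutive clusters after the lists of both replicates had been merged on arms 2L, 3L, 3R and X. To leave out the centromeric ends, gaps had to end before 20 Mb on 2L, 21.5 Mb on 3L and 19.4 Mb on X, while all of 3R was used. There were 343 gaps among the 4426 intervals searched, which is 7.75% of intervals. Merged lists of all sequences held 5757 intervals, and 32 further intervals of at least 50 kb on these arms lay past the limits. The gaps were chosen from the cluster positions themselves, so their lengths and the absence of replicate clusters inside them are descriptions without a test.

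Lysine 36 of histone H3 can be mono-, di- or trimethylated. In Drosophila the trimethylated form is laid down by Set2 over the bodies of transcribed genes, and Ash1 and NSD act on the dimethylated state. The monomethylated form is less well characterised. Drosophila chromatin also holds long domains that Polycomb proteins keep silent, among which the Hox complexes are the best known. Adult heads are rich in neurons and photoreceptors.

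The replicate lists had 5477 and 5412 clusters, and the combined list had 7567. The lists give no read counts, so the depth is unknown, and a gap is a stretch that passed no threshold of the authors at that depth, not one shown to lack the mark. Whether the replicates were separate collections of flies is not stated, and the spread between them may be technical. Head tissue could not be checked against marker genes, because the lists hold no expression values.

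The gaps made up a small share of the intervals and a large share of the cluster-free sequence. They summed to 31.7 Mb, which was 35.7% of the 88.8 Mb searched and 50.5% of the bases outside clusters. The median interval between clusters measured 3.29 kb, against 77.9 kb for the median gap. Gaps ran from 50.0 to 356.9 kb, 97 of them reached 100 kb and 14 reached 200 kb. The lengths fell off smoothly through the minimum, with 48 intervals of 45 to 50 kb and 44 of 50 to 55 kb. The longest interval left out was 3R:14318361-14368280 (49.9 kb), and the shortest gap was 3R:21485878-21535884 (50.0 kb). All coordinates are of FlyBase release 5 and count from 1.

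**Figure D1:**
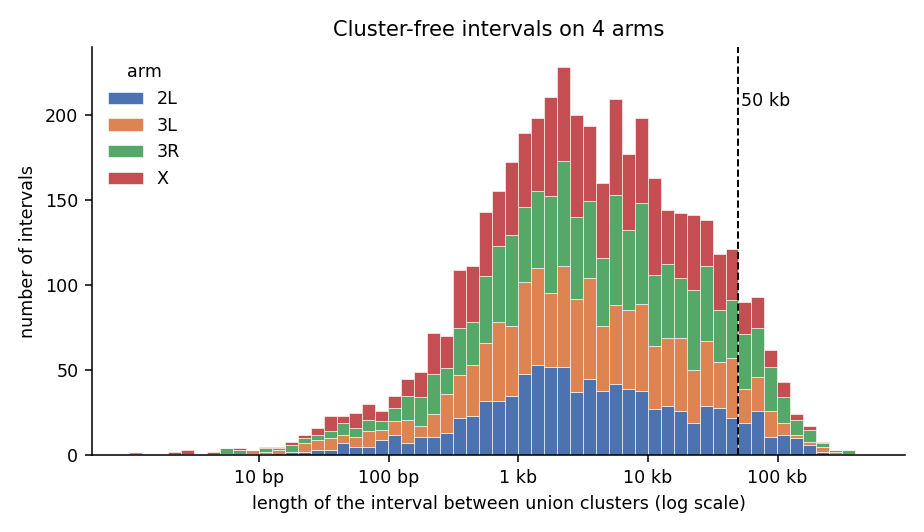
Lengths of the 4426 intervals between merged replicate clusters (x axis, log scale) against the number of intervals (y axis), stacked by arm. The dashed line marks the minimum of 50 kb, and the 343 intervals to its right form the upper tail of a single broad distribution, with no separate peak.

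The arms differed in how much of them the gaps took. Arm 3R had 123 gaps over 11.7 Mb, or 41.9% of its length, and 2L had 87 gaps over 8.26 Mb, or 41.3% of the part searched. On 3L there were 71 gaps (30.5%), and on X there were 62 (26.8%). Median lengths lay closer together, at 79.4 kb on 3R, 77.9 kb on 3L, 76.4 kb on 2L and 71.8 kb on X. The arms thus differed more in the number of gaps per Mb, from 3.20 on X to 4.41 on 3R, than in their usual length. With 4 arms no test between them was made.

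On 3R the longest gap was 3R:12457306-12814235, at 356.9 kb, and it held the bithorax complex. Replicate 1 alone left 357.6 kb free there and replicate 2 alone left 356.9 kb. The combined list placed 0 clusters wholly inside it. The next, 3R:2418519-2738693, measured 320.2 kb and held most of the Antennapedia complex. There replicate 1 alone left 371.6 kb and replicate 2 alone 320.3 kb, because the cluster that ends the gap on the right was listed in replicate 2 only. Next came 3R:1949444-2217869, which measured 268.4 kb and held a run of Osiris genes, an insect gene family. Replicate 1 set both of its ends, and replicate 2 alone left 385.1 kb free. Of these 3 gaps the bithorax gap was the one on whose ends the replicates came closest.

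On 3L the longest gap was 3L:1949401-2284190 (334.8 kb), with 402.1 kb free in replicate 1 alone and 341.4 kb in replicate 2 alone. The next were 3L:5348473-5601448 (253.0 kb) and 3L:6011526-6257855 (246.3 kb). For the former replicate 1 alone left 253.6 kb and replicate 2 alone 253.0 kb, and for the latter they left 249.9 and 253.6 kb. The lengths came close in both, but the ends of the latter differed between replicates by 7258 bases on the left and 3548 on the right. On 2L the longest was 2L:5463795-5725140 (261.3 kb). Replicate 1 alone left 424.2 kb there, since the left end was set by a 1.31 kb cluster of replicate 2. The others were 2L:14702664-14925789 (223.1 kb) and 2L:12545834-12760331 (214.5 kb), each longer in replicate 2 alone, at 267.5 and 262.7 kb.

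On X the longest gap was X:3823434-4038082, at 214.6 kb. It lay between wide clusters in both lists, 14.6 and 14.8 kb in replicate 1 and 12.9 and 11.6 kb in replicate 2, and the combined list had 0 clusters wholly inside it. The next were X:7608362-7783074 (174.7 kb) and X:13293207-13458475 (165.3 kb). For the former both replicates left nearly the same stretch, 174.8 and 174.9 kb. For the latter replicate 1 alone left 212.2 kb and replicate 2 alone 165.3 kb.

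Over all 343 gaps the replicates set the ends about equally often. Of the 686 gap ends, 357 were set by replicate 1 and 329 by replicate 2. The nearest cluster of the other replicate ended within 500 bases at 279 ends (40.7%) and more than 10 kb further out at 183 (26.7%), with a median difference of 1314 bases. At most 1.1 times the merged length was left free by both replicates in 173 gaps (50.4%). Replicate 1 alone left at least 1.5 times the merged length in 31 gaps, and replicate 2 alone did so in 40. Found in 1 list at a time, gaps of at least 50 kb numbered 383 in replicate 1 and 384 in replicate 2. Of the bases in gaps of replicate 1, 87.7% lay in gaps of replicate 2, and 85.5% of the bases in gaps of replicate 2 lay in gaps of replicate 1.

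**Figure D2:**
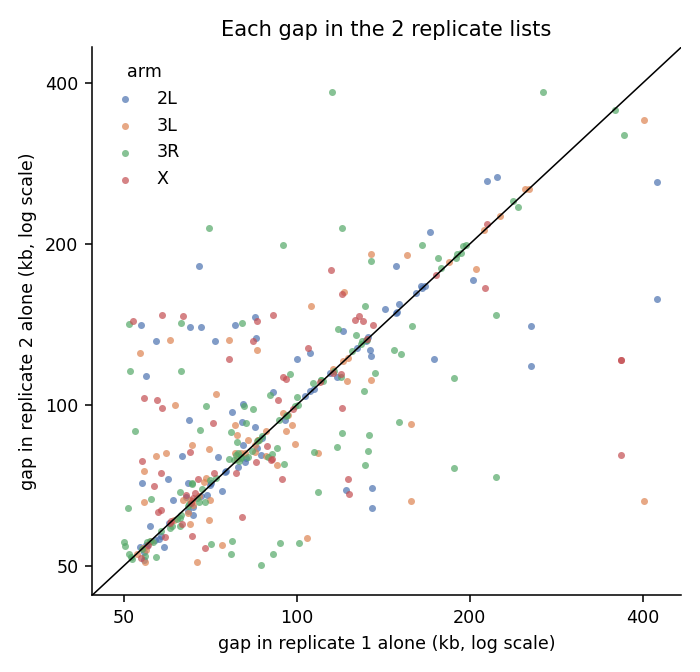
Each of the 343 gaps by the cluster-free length around it in replicate 1 alone (x axis, kb, log scale) and in replicate 2 alone (y axis, kb, log scale), coloured by arm. Points on the diagonal are gaps of equal length in both lists, whose ends may still differ. Those far from it have an end set by a cluster of a single replicate. Replicate 1 alone left at least 1.5 times the merged length in 31 gaps and replicate 2 alone in 40, counted separately.

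Neighbouring gaps were often close together. The distance between consecutive gaps of an arm had a median of 103.2 kb over 339 pairs, ranging from 1.30 to 1054 kb. In 108 pairs the gaps lay within 50 kb of each other, and in 55 within 10 kb. The shortest separations consisted of a single merged cluster, in 42 pairs (12.4%), with a median width of 1.96 kb. Of these single clusters 22 came from both replicates, 12 from replicate 1 only and 8 from replicate 2 only. So 20 of the 42 separations rested on 1 replicate.

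Joining gaps over such single clusters gave 5 runs of at least 3 gaps. The run with the most gaps, 3R:20638904-20963879, held 5 of them over 325.0 kb. The longest spans were 3L:1794125-2284190 (3 gaps, 490.1 kb) and 3R:12391569-12880300 (3 gaps around the bithorax complex, 488.7 kb). The single clusters on either side of the bithorax gap measured 4.64 and 1.53 kb and were listed in both replicates. By 1 Mb windows, the share of bases in gaps had a median of 35.3% over 87 windows. It was highest at 2 to 3 Mb of 3R (83.7%), followed by 9 to 10 Mb of 3R (66.4%), and was 0 in a single window, at 8 to 9 Mb of X.

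The clusters nearest to the gaps were narrower and had lower scores than the other clusters of the same list, in both replicates. These flanking clusters were taken at any distance. At 183 of the 686 gap ends (26.7%) that of the replicate not setting the end lay more than 10 kb outside the gap. The score is the authors' value per cluster and has no stated unit. In replicate 1 the 629 flanking clusters had a median score of 0.667, against 0.718 for the 3619 others. In replicate 2 the 622 flanking clusters had 0.616, against 0.667 for the 3565 others. The difference was -0.0509 ± 0.000719 (SD, n = 2). Median widths were 2.21 kb against 2.80 kb in replicate 1 and 2.14 kb against 2.77 kb in replicate 2. The distributions overlapped widely, and flanks of up to 62.4 kb occurred.

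Flanking clusters were also shared less often. A cluster of the other replicate overlapped 71.1% of the flanks of replicate 1, against 80.6% of its other clusters, and 75.1% of the flanks of replicate 2, against 85.8%. Clusters narrower than 2 kb made up 42.7% ± 0.790 of flanks and 32.7% ± 0.755 of others (SD, n = 2). Clusters of at least 10 kb made up 10.5% ± 1.61 and 12.7% ± 0.160. The flanks were picked from the lists that define the gaps, so these values are descriptions. A narrow cluster of 1 replicate inside a cluster-poor region becomes a flank by the rule itself.

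**Figure D3:**
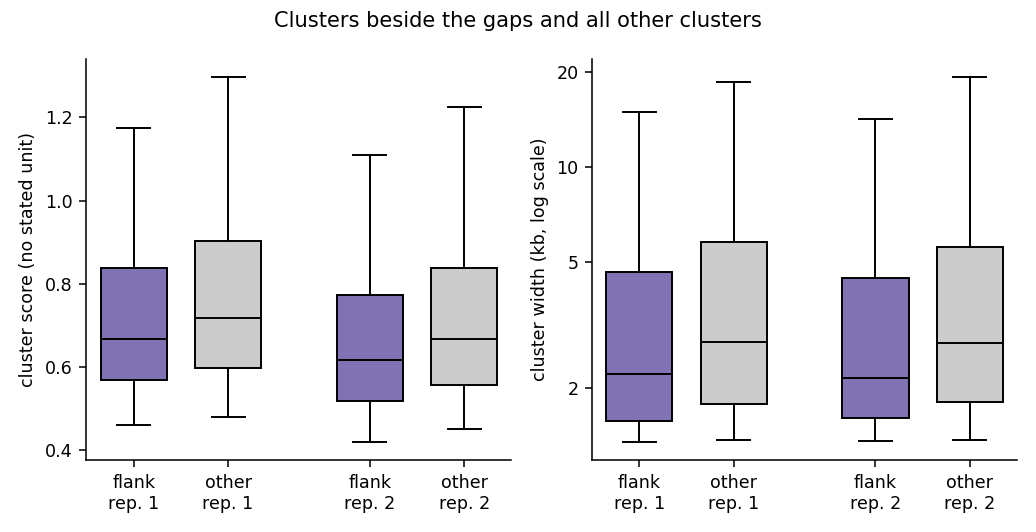
Scores (left, no stated unit) and widths (right, kb, log scale) of the clusters nearest to a gap on each side, at any distance, and of all other clusters, for each replicate. Boxes span the quartiles with the median as a line, and whiskers run from the 5th to the 95th percentile. In both replicates the flank medians lie below those of the other clusters, and the boxes overlap.

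The combined list placed 629 clusters wholly inside gaps, over 2.80% of gap bases. This was 19.8 clusters per Mb, against 45.6 per Mb in the shorter intervals, where 1417 combined clusters covered 6.86% of bases. It draws on the same libraries and is no independent measure. Of the gaps, 87 (25.4%) held none, 204 held 1 to 3 and 52 held 4 or more. In 245 gaps (71.4%) a stretch of at least 50 kb stayed free in the combined list too. The clusters inside were narrow, with a median of 1270 bases against 2682 elsewhere in the combined list, and 341 of 629 (54.2%) were narrower than any replicate cluster. Their median score was 0.397, against 0.478 elsewhere in that list. By the rule, clusters inside gaps are ones that neither replicate list held, while those elsewhere include many that a replicate list held. Low widths and scores are therefore not read as traits of gaps. Widths and scores of the 1417 combined clusters in shorter intervals were not compared.

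Combined clusters inside gaps lay towards the ends. Within 10 kb of an end there were 41.5 per Mb, and further in there were 13.8 per Mb. A combined cluster also reached over 515 of the 686 ends (75.1%). The most clusters inside a gap were 10, in 3R:1832917-1947950 (115.0 kb) and X:4841623-4933596 (92.0 kb). On 3L the most were 8, in 3L:12145451-12208064 (62.6 kb), and on 2L they were 7, in 2L:3895302-3968255 (73.0 kb). By arm, X gaps had 26.1 per Mb, 3R gaps 19.8, 3L gaps 18.5 and 2L gaps 17.1. The widest measured 3.80 kb and the top-scoring, 3R:97719-99703, had a score of 1.67.

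Gene content was described for 3R, where positions of the RefSeq gene table in Release 6 could be set on release 5 by a constant offset. Of 4206 genes on 3R, 1863 lay wholly inside a gap, which is 44.3%. A further 1397 lay wholly in a shorter interval, and 946 met a cluster of either replicate. Among protein-coding genes 1494 of 3387 lay in gaps, 44.1%. The share in gaps of replicate 1 alone was 51.0% and in gaps of replicate 2 alone 49.4%. The gaps took 41.9% of the arm, so they were not poor in genes. By gene midpoints, gaps held 163.0 genes per Mb, shorter intervals 182.9 and clusters 93.4.

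Gaps held short genes, while clusters lay over long ones. Protein-coding genes wholly in gaps had a median length of 1812 bases, those in shorter intervals 1914 and those that met a cluster 7144. A long gene is less likely to lie wholly in a gap and more likely to meet a cluster by its length alone, so the bases were counted as well. Genes of at least 20 kb covered 19.1% of gap bases, 33.5% of the bases in shorter intervals and 71.7% of cluster bases. Protein-coding genes of any length covered 55.3%, 77.2% and 88.3%, in that order. The share of a gene under clusters averaged 9.96% for protein-coding genes under 2 kb, 25.3% at 10 to 20 kb and 55.9% at 50 kb or more. The midpoint lay in a gap for 50.8% of genes under 2 kb and for 11.7% of those of at least 50 kb.

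Gap ends lay inside genes about as often as other cluster ends did. Of the 246 ends on 3R, 203 (82.5%) fell in an annotated gene, with a median length of 21.8 kb for the longest gene there. At the other cluster ends of 3R, 1875 of 2202 (85.1%) did, in genes with a median of 35.0 kb. Protein-coding genes alone covered 55.3% of gap bases, 77.2% of the bases in shorter intervals and 88.3% of cluster bases. No preference of gap ends for genes is therefore read from the counts. Both ends of 85 gaps lay in genes, and in 0 gaps did both ends lie in the same gene. Some long genes ended a gap on each side, among them Ptp99A, a receptor tyrosine phosphatase of 109.5 kb, 77.5% of it in clusters. Another was side, which encodes a guidance cue that motor axons recognise, with 32.0% of its 62.4 kb in clusters. These genes, like the others named at ends, were chosen after their values were seen.

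**Figure D4:**
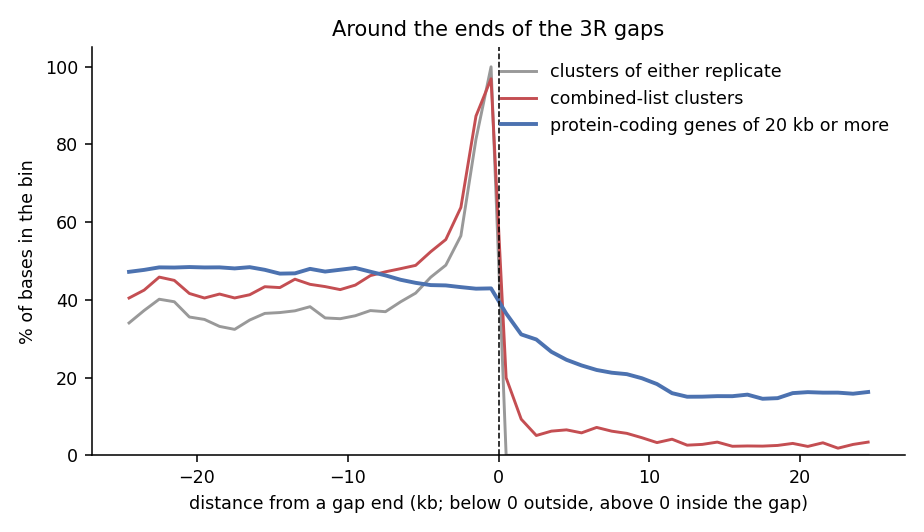
Share of bases (y axis, %) in 1 kb bins around the 246 ends of the 3R gaps, by distance from the end (x axis, kb, with the gap to the right of 0). Lines give clusters of either replicate, combined-list clusters and protein-coding genes of at least 20 kb. Outside bins can reach into other intervals and gaps. Long genes cover 43.0% of the last 1 kb outside, 36.5% of the first 1 kb inside and 14.6% to 16.3% of each bin from 12 kb inwards.

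The gaps of 3R held from 0 to 55 genes each, with a median of 14. The most, 55, lay in the gap over the Antennapedia complex, 3R:2418519-2738693, and 49 lay in the Osiris gap, 3R:1949444-2217869. The former began with glob2, a globin, sowi, sunz, Ass, argininosuccinate synthetase, Taf1, a subunit of the general transcription factor TFIID, twr, agt and lab. The latter held 22 of the 24 Osiris genes of 3R, together with NPFR, the receptor of neuropeptide F. The 2 remaining Osiris genes lay in other gaps. Of all 3R genes 44.3% lay in gaps. The 22 are neighbours that share a gap, so they are not separate observations. The Osiris family was counted after its place had been seen.

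The bithorax gap held 28 genes, at 78.4 per Mb, with nonA-l, Arl6IP1, CCT3, Mettl4 and modSP beside Ubx, Glut3 and abd-A. The gap 3R:8549331-8787548 (238.2 kb) held 20 genes, among them beat-Va, beat-Vb and beat-Vc, of the Beaten path family of axon guidance proteins, and Ugt37A2 and Ugt37A3, of the glucuronosyltransferase family. The gap 3R:9298586-9531745 (233.2 kb) held 28 genes, among them sqd, Hrb87F and B52, which encode RNA-binding proteins of mRNA processing, and Lkb1, a kinase upstream of AMPK. It also held rin, Rbp4, Task6 and omd.

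Of the Hox genes, which set segment identity, 7 of 8 lay wholly in gaps, against 44.3% of all 3R genes. They lay in only 2 gaps, so they are not separate observations. In the Antennapedia gap were lab (17.2 kb), pb (34.3 kb), Dfd (10.6 kb) and Scr (26.9 kb), and in the bithorax gap Ubx (77.8 kb), abd-A (22.8 kb) and Abd-B (45.0 kb). Ubx was the longest protein-coding gene wholly inside a gap on 3R. Others over 50 kb were MSAmiP (65.2 kb), CG4374 (63.6 kb), RYa-R, a neuropeptide receptor (61.0 kb), qin, of the piRNA pathway (59.1 kb), and 5-HT2B (51.8 kb). The exception was Antp, 103.0 kb long, of which 3.45% lay in clusters. It reached from the Antennapedia gap across 3R:2740418-2790083, at 49.7 kb just under the minimum, into the gap 3R:2791910-2926563 (134.7 kb).

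Genes of early embryonic patterning lay in gaps in 9 of 10 cases, spread over 6 gaps, against 44.3% of all 3R genes. Their median length was 2.86 kb, and of protein-coding genes of 2 to 5 kb 43.2% lay in gaps. The patterning genes in gaps are named next. They were hkb, zen2, zen, bcd, ftz, hb, hh, fkh and tll. The zerknüllt genes, bicoid and fushi tarazu lie within the Antennapedia complex, and the others are scattered over the arm, so 5 of the 6 gaps lay outside that complex. The exception was opa, a pair-rule gene of 17.2 kb, 53.5% of it in clusters. Homeobox genes outside the Hox complexes divided, with 8 of 16 in gaps (50.0%, against 44.3% for all genes). In gaps were ems, tin, bap, lbe, C15, slou, btn and Ptx1. Of these, tin, bap, lbe, C15 and slou lay close together, in neighbouring gaps. Between bap and lbe lay lbl, which met a cluster, with 6.23% of it covered. That cluster parts the neighbouring gaps and was listed in replicate 2 only. At the other extreme hth, a cofactor of Hox proteins 132.0 kb long, was 98.8% under clusters, and pros, a determinant of neural cell fate, 56.0%.

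Of other developmental transcription factors 9 of 25 lay in gaps. Those in gaps included cas, of neuroblast timing, ato, a proneural gene, ss, of antennal and photoreceptor identity, and pnr and GATAe, both GATA factors. A further 13 of 25 met a cluster, against 22.5% of all 3R genes. This list had a median length of 11.4 kb, and of all protein-coding genes of 10 to 20 kb 33.0% lay in gaps and 57.3% met a cluster, so nothing particular to these factors is read from the counts. Among those that met a cluster, pnt, an Ets factor, was 98.5% under clusters, dsx, of sexual differentiation, 88.8% and svp, a nuclear receptor, 79.0%. In the E(spl) complex of Notch target genes 3 of 13 genes lay in a gap, E(spl)m7-HLH, E(spl)m8-HLH and gro, the corepressor beside it. Another 7 met a cluster, and E(spl)mdelta-HLH, E(spl)mgamma-HLH and E(spl)mbeta-HLH lay wholly under clusters. The median length of the 13 was 0.978 kb, and of protein-coding genes under 2 kb 50.8% lay in gaps and 11.7% met a cluster. A gap end thus fell within this gene complex, whose genes are neighbours and not separate observations.

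**Figure D5:**
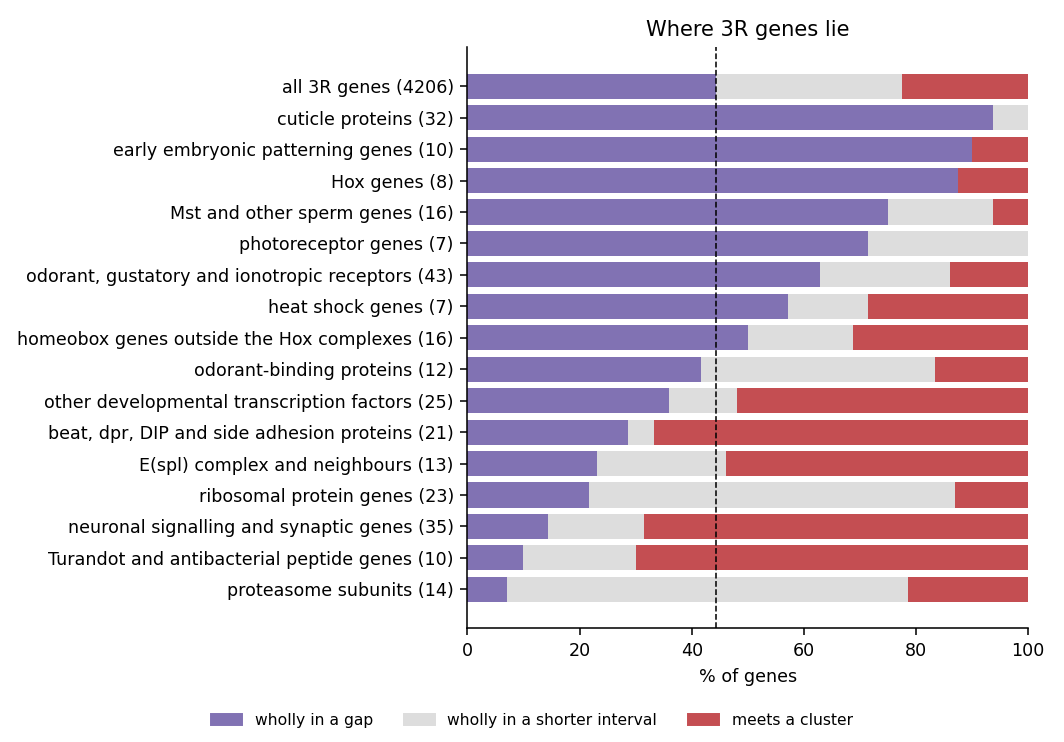
Percentage of the genes of each list (number of 3R genes in brackets) that lay wholly in a gap, wholly in a shorter interval or met a cluster of either replicate. The dashed line is the share of all 3R genes in gaps, 44.3%. Cuticle proteins, early patterning genes and Hox genes have the highest shares in gaps, and the neuronal, Turandot and proteasome lists have the lowest. The lists differ in gene length and are partial.

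Cuticle and male-specific genes were common in gaps. Of the cuticle proteins, which build the exoskeleton, 30 of 32 lay in gaps (93.8%, against 44.3% of all 3R genes) and 0 met a cluster. Their median length was 1.09 kb, and of all protein-coding genes under 2 kb 50.8% lay in gaps and 11.7% met a cluster. The 30 cuticle genes came from 7 gaps, so these genes do not count as separate observations. The gap 3R:22418661-22490978 (72.3 kb) alone held 12 of them, from TwdlM to TwdlD of the Tweedle family, and the Antennapedia gap held 7 Ccp84A genes and Edg84A. The 2 outside gaps, Cpr92A and TwdlQ, lay in shorter intervals. Of the Mst genes, named for male-specific transcripts, and the sperm genes listed with them 12 of 16 lay in gaps, in 5 of them. The Mst genes, Mst57Da, Mst57Db and Mst57Dc among them, were listed by name and not by a role in sperm. The list had a median length of 0.962 kb, against which the 50.8% of protein-coding genes under 2 kb in gaps can be set. Genes in gaps included Mst84Da, Mst84Db, Mst84Dc and Mst84Dd and the protamine-like Prtl99C, and Mst87F was wholly under a cluster.

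Genes of the visual and chemical senses were also found in gaps. On a partial list, photoreceptor genes lay in gaps in 5 of 7 cases, each in a gap of its own, and 0 met a cluster. Of all 3R genes 44.3% lay in gaps and 22.5% met a cluster. The list had a median length of 2.32 kb, and of protein-coding genes of 2 to 5 kb 43.2% and 13.5% did. With 7 genes nothing particular to photoreceptor genes is read from the counts. The genes in gaps were ninaE, the main rhodopsin of the outer photoreceptors, Rh3 and Rh6, rhodopsins of inner photoreceptors, trp, a cation channel of phototransduction, and ninaB, an enzyme of retinal synthesis. All 5 were short, from 1.39 kb for Rh3 to 5.77 kb for trp. The other 2, ninaG and rdhB, lay in shorter intervals. Adult photoreceptors are known to express the rhodopsins and trp, but expression was not measured here.

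Of the odorant, gustatory and ionotropic receptors of chemosensory neurons 27 of 43 lay in gaps (62.8%, against 44.3% of all 3R genes), spread over 15 gaps. The genes listed were short, with a median of 1.41 kb, and of all protein-coding genes under 2 kb 50.8% lay in gaps. The receptor genes in gaps included Or82a, Or83c, Ir84a, Or85a, Or85d, Or85e, Ir87a and Or88a. Orco, the coreceptor shared by most odorant receptors, lay in a shorter interval, as did Or83a, Or85b and Or85c. A further 6 met a cluster, and the neighbours Gr93a, Gr93b, Gr93c and Gr93d lay wholly under clusters. Odorant-binding proteins, with 5 of 12 in gaps (41.7%), were near the share of all genes.

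On a partial list of genes of neuronal signalling and synapses 5 of 35 lay in gaps (14.3%, against 44.3% of all 3R genes) and 24 met a cluster (68.6%, against 22.5%). The genes listed were long, with a median of 20.4 kb against 1776 bases for all 3R genes. Of all protein-coding genes of 20 to 50 kb 16.8% lay in gaps and 82.1% met a cluster, so the counts were near those of other genes of that length. The 5 were Nlg1, a neuroligin, 5-HT2B, a serotonin receptor, Tk, the tachykinin peptide gene, Octbeta1R, an octopamine receptor, and nAChRbeta2, an acetylcholine receptor subunit. Nlg1 and 5-HT2B were long, at 36.6 and 51.8 kb, and still free of replicate clusters. Syx1A, the syntaxin of synaptic vesicle release, was 90.3% under clusters, ChAT and VAChT of acetylcholine synthesis and storage 71.3% and 67.7%, and nAChRalpha1 78.4%. The neuropeptide genes Crz, CCAP and Pdf, each short, lay in shorter intervals. Many genes of the same kind that are not on the list lay wholly in gaps. Among them, named after their places were seen, were the neuropeptide genes NPF, Dsk, CCHa1, CCHa2, Dh44 and Capa, the peptide receptor genes NPFR, RYa-R, AstA-R2, PK1-R, CCAP-R, TkR86C and ETHR, and TyrR, TyrRII, GluRIID, GluRIIE, GABA-B-R2, AdoR and Syt4. Other genes off the list did not. The peptide receptor genes SIFaR and TkR99D, also named after their places were seen, reached over a gap end and so met a cluster. So did Nlg3, with 59.9% of it in clusters, and CASK, Sap47, EndoA and Calx, named in the same way. The names on both sides are examples, and no share was worked out for genes off the list. The share of 14.3% therefore holds for the genes listed and not for neuronal genes in general.

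Of the beat, dpr, DIP and side adhesion proteins 6 of 21 lay in gaps (28.6%), and 14 met a cluster (66.7%). Their median length was 22.7 kb, and the share in gaps was below the 44.3% of all 3R genes. It lay between the 16.8% of protein-coding genes of 20 to 50 kb and the 33.0% of those of 10 to 20 kb. The 6 were DIP-gamma (45.4 kb), beat-Vc (37.2 kb), dpr15 (19.8 kb), dpr16 (19.2 kb), beat-Vb (18.8 kb) and beat-Va (7.86 kb). The beat genes among them lay in the same gap and are not separate observations. With this mix of lengths nothing particular to the family is read from the count. Of the genes that met a cluster, side-VI, at 80.8%, was among those with the highest share under clusters.

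Ribosomal protein and proteasome genes lay mostly in the shorter intervals, which held 33.2% of all 3R genes. Both lists include paralogues known for use in the germline, such as RpS5b, RpS19b, RpL10Aa and Prosalpha4T1. Of ribosomal protein genes 5 of 23 lay in gaps (21.7%), RpL35A, RpS5b, RpS27, RpL27 and RpL34a, and 15 lay in shorter intervals. The 3 that met a cluster were RpL10Aa, RpS19b and RpS10a. Their place turned on the replicate: 47.8% lay in gaps of replicate 1 alone and 26.1% in gaps of replicate 2 alone. Of proteasome subunits 1 of 14, Prosalpha2, lay in a gap (7.14%) and 10 lay in shorter intervals. The share in gaps was the same in replicate 1 alone, while 21.4% lay in gaps of replicate 2 alone. Of the Turandot stress genes and antibacterial peptide genes, which are induced by stress or infection, AttD was the only one of 10 in a gap, and 7 met a cluster. Among these CecA1, CecA2, CecB, TotA, TotC and TotZ lay wholly under clusters. Of all 3R genes 44.3% lay in gaps and 22.5% met a cluster, and of protein-coding genes under 2 kb 50.8% and 11.7% did. Genes of these families lie in groups, so they do not count as separate observations. Of the heat shock genes 4 of 7 lay in a gap, all in 3R:8280056-8359754 (79.7 kb), and were Hsp70B copies. The other Hsp70 genes, Hsp70Aa and Hsp70Ab, were 77.5% and 91.8% under clusters. All 6 are near-identical in sequence, so the values of single copies are uncertain.

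Combined clusters inside the 3R gaps could also be set on genes. Of 231 such clusters 173 (74.9%) met a protein-coding gene, with a median of 17.3 kb for the longest gene met. Protein-coding genes covered 55.3% of gap bases, and 64.6% to 75.5% of each 1 kb bin within 10 kb of an end. A cluster spans many bases and so meets a gene more readily than a single base does. No preference for genes is therefore read from the count. The genes with the most combined clusters were CG45263 (113.3 kb) and bnl, a fibroblast growth factor of tracheal branching (42.7 kb), with 5 each. Both also met replicate clusters and reached into a gap from outside. The gene wat (27.4 kb) lay wholly in a gap and met 4.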

How the data were processed

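H3K36me1 ChIP-seq of adult Oregon-R heads gave 2 ChIP replicates and 2 inputs. The aligner was Bowtie 0.12.7, per the submitters' processing notes. Cluster positions refer to FlyBase release 5, per the file headers. The deposited score of a cluster has no stated unit. How clusters were called, and how replicates were combined, is not given in sources used here. Comparisons of scores stayed within a list. Depth is unknown, so no counting interval is given.

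Clusters of both replicates were merged where they overlapped or touched, and intervals of at least 50 kb were kept, with Python 3.11.15, numpy 2.4.6 and pandas 2.3.3. Figures used matplotlib 3.10.9. The code was tested on simulated lists with planted gaps. A flanking cluster is the nearest cluster of each replicate on each side of a gap.

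No annotation of release 5 was used. For 3R, positions of the RefSeq table of Release 6 were lowered by a constant of 4174278 bases. With it 71.7% of merged cluster bases lay in protein-coding genes of at least 20 kb, and without it 40.9%. Of 4226 genes, 20 lay before the start of the arm of release 5 and were left out. The table gives no strand and no exons, so gene starts, exons and introns are not described, and genes on 2L, 3L and X were not analysed here. Sequences of the gaps were not used here.

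The members and the 16 gene lists were chosen with earlier results of these data known, and 11 entries that did not belong to their list by function or repeated another list were removed after their places had been seen. Named by rule were the 3 longest gaps of each arm, the intervals at the minimum, the gap with the most combined clusters on each arm, up to 8 named genes in the 5 longest and the 2 most gene-rich 3R gaps, and up to 8 list members in gaps with up to 4 outside. Some genes beyond this were named after their values were seen. With a single group of 2 replicates and members chosen from the readout, no test was made. Alternatives were other lists, scores, widths and minimum lengths, and other rules for genes and combined clusters.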

Additional observations from a re-analysis of the deposited data

How the results depend on the processing

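The number of gaps stayed within 1.5 times of 343 under 8 of 9 alternatives, from 265 with the combined list alone to 462 at a minimum of 40 kb, and was 97 at a minimum of 100 kb. The summed length, 31.7 Mb, was 36.8 to 37.7 Mb with a single replicate. It was 22.3 Mb with the combined list, 49.6 Mb with clusters at or above the median score of their list, 44.6 Mb with clusters of at least 2 kb, and 43.6 Mb where a merged cluster had to hold both replicates. By construction, minimum lengths of 40, 60 and 100 kb gave 37.0, 27.6 and 14.7 Mb, and fewer clusters gave more gap sequence. The share of gap bases under combined clusters, 2.80%, was 4.58% to 5.22% in gaps of a single replicate, and 3.35% when clusters reaching over an end were counted. The score difference of flanks kept its sign, at -0.0514 to -0.0504 by replicate, -0.0528 with clusters of at least 2 kb and -0.0510 with gaps of at least 100 kb. The share of 3R genes in gaps, 44.3%, was 49.4% to 51.0% with a single replicate, 46.9% by the listed lower end of the gene, 49.1% with at least 1 base in a gap, 44.1% for protein-coding genes and 17.9% with gaps of at least 100 kb. Before the 11 entries were removed, photoreceptor genes lay in gaps in 5 of 8 cases, and the Mst genes with the sperm genes listed beside them in 13 of 19. No paired analysis was possible because a single group, ChIP, was described, and no list holds values of the inputs. Depth limits what a gap can show, since a weakly marked stretch may not have passed the authors' threshold.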

Other observations

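Non-coding genes of 3R were placed unevenly. Of 79 tRNA genes 44 lay in gaps (55.7%), of 424 long non-coding RNA genes 206 (48.6%), of 58 miRNA genes 19 (32.8%) and of 48 snoRNA genes 3 (6.25%), against 44.3% of all 3R genes. Most snoRNA genes, 42, lay in shorter intervals. Genes of these classes often lie in groups or share a host gene, so they are not separate observations. The miRNA genes mir-10 and mir-993 lay in the Antennapedia gap, and mir-iab-4 and mir-iab-8 in the bithorax gap.

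A few gaps of 3R were nearly without whole genes. In 3R:23568011-23620284 (52.3 kb) there were 0, and only Ets98B and CG34353 reached into it. In 3R:24177008-24244754 (67.7 kb) Or98b was the only gene, with beat-VI reaching in. The gaps 3R:23905744-23968380 (62.6 kb) and 3R:23817496-23869349 (51.9 kb) held 2 genes each, none of them protein-coding, and trv, a gene of 64.1 kb of which 41.6% lay in clusters, reached into both. These gaps were chosen after their gene counts were seen.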
